A study of Drosophila melanogaster with 8 samples.

Results

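Genes for sugar transport and trehalose breakdown were examined along the midgut of feeding *Drosophila melanogaster* larvae of the last instar. The set held 9 genes, chosen by name: the trehalose transporters *Tret1-1* and *Tret1-2*, the predicted sugar transporters *sut1*, *sut2*, *sut3* and *sut4*, the glucose transporter gene *Glut1*, the trehalase gene *Treh*, and the α-glucosidase gene *tobi*. All 9 were found among the 14207 named entries of the deposited table, and 5 of them (*Tret1-1*, *sut1*, *Glut1*, *Treh* and *tobi*) were over the expression limit of the study, which was more than 5 FPKM in any subsection or a mean of more than 3 FPKM. That limit was met by 6315 entries. FPKM is a read count scaled to transcript length and, in these data, to the upper quartile of a library and not to its total. Levels of different genes can be set side by side on it, but the libraries do not share the same sum.

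Trehalose is the main sugar circulating in insect hemolymph, and it enters and leaves cells through carriers such as Tret1. Trehalase splits it into glucose, while dietary starch and sucrose are cleaved in the gut lumen by amylases and α-glucosidases before the products are carried into the epithelium. The facilitative sugar transporters form a large family in the fly, and a member of it may serve the apical side, which faces the food, or the basal side, which faces the hemolymph.

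The midgut was cut into 8 subsections. The anterior midgut gave M1, M2 and M3–5, the middle midgut gave M6 and M7–8, and the posterior midgut gave M9, M10–11 and M12–13. All larvae were progeny of a cross between flies homozygous for a *Cyp4d2* promoter-*GAL4* transgene and *w1118* flies with a UAS-*GFP* reporter. The fluorescence of the reporter in some of the subsections guided the dissection, and the larvae received no treatment. Tissue from many larvae was pooled into 1 library per subsection, so no difference between subsections could be tested, and no value carries an error over larvae. Below, a difference on the log2(FPKM + 1) scale was counted when its size was at least 1, and a range along the midgut when it was at least 2, and the share of the 6315 genes past the same limit is given as the background.

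Summed FPKM was lowest in M12–13 (542365) and highest in M2 (1806163), and the median ratio of a library to the geometric mean of all was 0.725 in M6 and between 0.991 and 1.15 in the other 7. The study describes the RNA of M6 as more prone to degradation and its library as shallower than the others. The copper cell genes *lab* (32.9 FPKM) and *Vha100-4* (632 FPKM) were highest in M6, and the trypsin gene *alphaTry* was at 22903 FPKM in M1 and 2.28 FPKM in M10–11. Among genes of other tissues, the salivary gland list (7 genes) summed to at most 0.801 FPKM and the Malpighian tubule list (6 genes) to at most 1.44 FPKM in any subsection. Other lists were higher. The trachea list (6 genes) summed to at most 9.54 FPKM, in M12–13, and the hemocyte list (6 genes) to at most 128.9 FPKM, in M6, where *crq* was at 128.7 FPKM. Values for fat body, visceral muscle, and neurons and glia are given below. The deposited Cuffdiff interval had a lower bound of 0 for all 72 values of the 9 genes, and for all but 57 of the 113656 values of the table. All 72 values had the status OK.

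The 5 genes over the expression limit differed in where they were highest. *Treh* and *Tret1-1* were highest in M1, *sut1* was highest in M2 and present throughout, *tobi* was highest in M3–5, and *Glut1* was highest in M12–13. The other 4 genes stayed at or below 2.09 FPKM in every subsection. A range of at least 2 was found for these 5 of the 9 genes, against 19.2% of all 14207 entries and 41.5% of the entries over the expression limit. *tobi* and *Glut1* met that limit only through the library in which they were highest, so a large range was built in for them. The highest subsection was M1 for 21% of all genes, M2 for 21.6%, M3–5 for 6.87% and M12–13 for 10.8%, while it was M6 for 8.11%, M7–8 for 14.6%, M9 for 8.63% and M10–11 for 8.41%, where none of the 5 was highest.

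**Figure D1:**
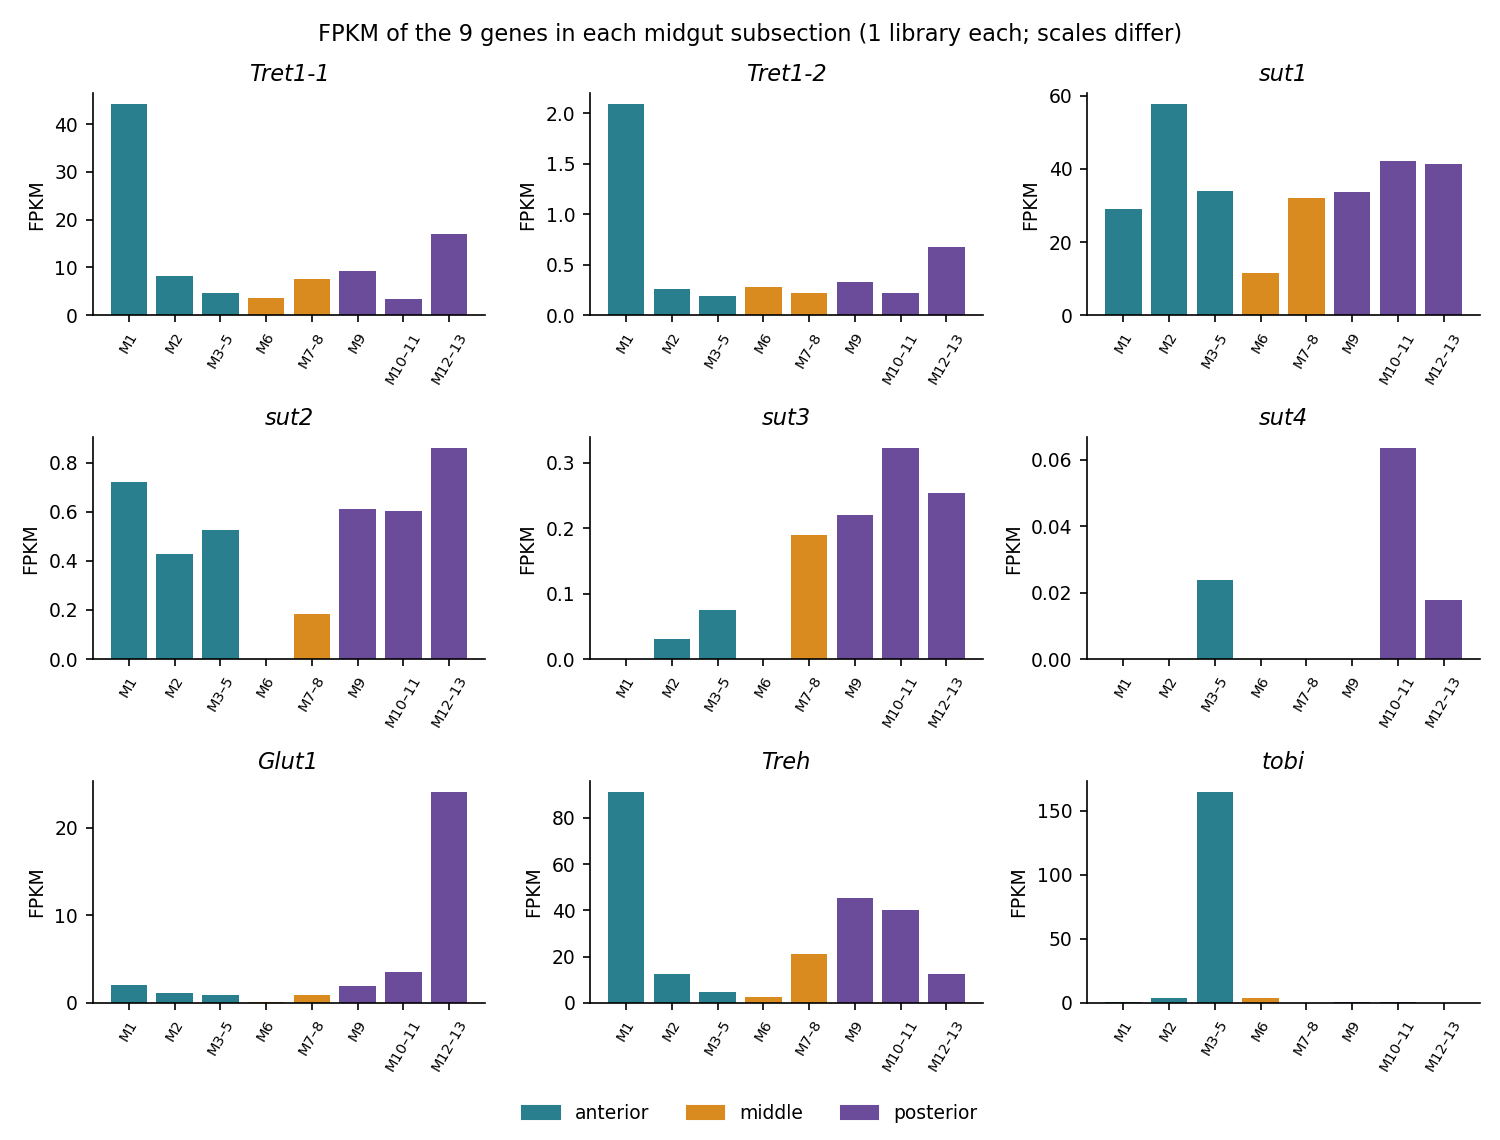
FPKM (y axis, a scale of its own for each gene) of the 9 genes in the 8 subsections from anterior to posterior (x axis), with 1 library per bar and colours for the anterior, middle and posterior midgut. *tobi* reached 165 FPKM in M3–5 and did not exceed 3.71 FPKM in any other library, *Glut1* reached 24.2 FPKM in M12–13, and *Treh* had its highest value in M1 and a broader one in M9 and M10–11.

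The trehalose carrier gene *Tret1-1* had 44.2, 8.31, 4.68, 3.70, 7.48, 9.31, 3.43 and 17.1 FPKM from M1 to M12–13, in the order given above. It was therefore high at both extremes of the midgut and low between them, with M1 at 2.59 times M12–13, the next highest. M2 was lower than M1 by 2.28 on the log2 scale, a step in that direction of at least 1 being found in 3.2% of all genes. M12–13 was higher than M10–11 by 2.03, a step found in 4.78% of all genes, and M10–11 was lower than M9 by 1.22, found in 2.53%. The upper bound of the deposited interval in M1 was 130.6 FPKM.

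*Tret1-2*, the paralog beside it, had the same shape at a far lower level. Its values were 2.09, 0.263, 0.190, 0.276, 0.219, 0.332, 0.217 and 0.673 FPKM in the same order. M2 was 1.29 lower than M1 on the log2 scale, and Pearson r between both paralogs over the 8 subsections was 0.92 (0.94 without M6). The smallest steps between low values allowed the reads behind a value to be estimated for genes with a single annotated transcript, in the 6 libraries other than M6 and M12–13. By that estimate *Tret1-2* had about 86 reads in M1 (95% Poisson interval 68.8 to 106.2) and 9 to 19 reads in the other 5, intervals that cover counting error only.

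The 2 genes lie in 1 bundle of overlapping genes on chromosome 2R (7540261 to 7566859, FlyBase release 5) together with *CG13198* and *Roc2*. Reads of 38 bp that match both paralogs were divided between them by the multiread correction of Cuffdiff, so their shared shape is uncertain: the part of shared reads in the values of *Tret1-2* was not tested. *Roc2*, a ubiquitin ligase subunit, was highest in M2 (51.8 FPKM) and lowest in M12–13 (15.5 FPKM), and *CG13198* was at most 0.349 FPKM, so neither had the pattern of *Tret1-1*.

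*sut1* was the most even of the 5 genes. It had 29.1, 57.7, 33.9, 11.7, 32.2, 33.6, 42.2 and 41.3 FPKM from M1 to M12–13. Apart from M6, its values lay within a range of 0.96 on the log2 scale, and its mean was 5.30 in the anterior and 5.32 in the posterior midgut, a difference of −0.01. M6 was lower than M3–5 by 1.46, as in 34.2% of all genes, and M7–8 was higher than M6 by 1.39, as in 20.3%. Its range of 2.21 was 1.58 after each library was divided by its median ratio. *sut1* had the highest value of the 9 genes in M2, M6, M7–8, M10–11 and M12–13, and of the 7 transporter genes in all subsections but M1.

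The next 2 *sut* genes beside it were nearly silent. *sut1* (bundle 3968064 to 3974656, shared with the SWEET family sugar transporter gene *slv*), *sut2* (3974901 to 3976802) and *sut3* (3976987 to 3978802) follow one another on 2R. *sut2* had 0.721, 0.428, 0.527, 0, 0.184, 0.611, 0.605 and 0.860 FPKM in the same order. By the read estimate these were 13 to 35 reads in the 6 libraries for which it could be made, so *sut2* was low but detected there. *sut3* was listed at 0 in M1 and M6, and its values were 0.0307, 0.0750, 0.190, 0.221, 0.323 and 0.254 FPKM in the other 6 libraries, in order from M2 to M12–13. Neither stood above percentile 49.6 of all entries in any subsection.

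*sut4*, at 5972674 to 5983921 on 2R in a bundle with *CG2269*, was listed at 0 in 5 subsections, namely M1, M2, M6, M7–8 and M9. Its other values were 0.0238 FPKM in M3–5 (about 1 read), 0.0636 FPKM in M10–11 (about 4 reads) and 0.0178 FPKM in M12–13. A count of 0, taken as allowing 3 reads, leaves room for up to 0.0729 FPKM in M1, 0.0733 FPKM in M2, 0.0414 FPKM in M7–8 and 0.0533 FPKM in M9. The values above 0 are within or close to these limits, so no difference between subsections was detectable for *sut4* at this depth.

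*Glut1*, the fly homolog of the mammalian GLUT glucose carriers, was concentrated at the hind end. It had 2.06, 1.10, 0.935, 0.0495, 0.868, 1.98, 3.56 and 24.2 FPKM from M1 to M12–13. M12–13 was 6.78 times M10–11, the next highest, and the step between them was 2.46 on the log2 scale. Of the 9 genes, *Glut1* and *Tret1-1* had a step of at least 1 upward there, against 4.78% of all genes. Both were among the 5 over the expression limit. *Glut1* met that limit only through M12–13, so its step upward there was partly built in. The anterior mean of *Glut1* was 1.21 and its posterior mean 2.81, a difference of −1.59. Without M12–13 the difference was −0.67 and under the limit.

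*Glut1* spans 914074 to 993687 on chromosome 3L, alone in its bundle. The gene has 20 transcripts in a later annotation, and the median length was 3197 nucleotides. Over 5857 genes the anterior minus posterior difference was related to transcript length (Spearman rho −0.70 across genes, which are not independent replicates), with longer genes higher in the posterior midgut. With that trend removed the difference of *Glut1* was −0.85. The visceral muscle list (10 genes) summed to 2317 FPKM in M12–13 and to between 781 and 1981 FPKM in the other subsections. In the neuron and glia list, the glutamine synthetase gene *Gs2* was at 1725 FPKM in M12–13, while the neuronal gene *elav* was at most 1.07 FPKM and the glial gene *repo* at most 0.0263 FPKM in any subsection. The listed genes *n-syb*, *brp* and *Syt1* were at most 1.26, 0.181 and 0.795 FPKM. *moody* had 11.7 FPKM in M12–13 and 12.4 FPKM in M7–8, its highest. *Eaat1* had 1.35 FPKM in M12–13 and 62.6 FPKM in M2, its highest. The part of these tissues in the value of *Glut1* in M12–13 was not tested, and fewer cells of a type and less RNA per cell cannot be told apart in pooled tissue.

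*Treh*, which encodes the enzyme that cleaves trehalose to glucose, had 91.3, 12.3, 4.83, 2.52, 21.0, 45.3, 39.9 and 12.3 FPKM in the same order. There were therefore high values in M1 and again in M9 and M10–11, and a trough in M3–5 and M6. Of its 7 steps between neighbours, 5 were past the limit, the most of the 9 genes. M2 was lower than M1 by 2.79 on the log2 scale and M3–5 lower than M2 by 1.19, as in 2.72% of all genes. M7–8 was higher than M6 by 2.64, M9 was higher than M7–8 by 1.07, as in 8.16% of all genes (6.24% were lower), and M12–13 was lower than M10–11 by 1.62, as in 5.21%. *Treh* had the highest value of the 9 genes in M1 and M9.

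*Treh* was not past the limit between the divisions, and the sign of its difference depended on the libraries included. The anterior mean was 4.27 and the posterior mean 4.88, a difference of −0.61. Without M1 it was −1.74, without M3–5 it was 0.26, without M12–13 it was −1.18, and with the length trend removed it was 0.02. *Treh* lies in a bundle on 2R (16961523 to 16978509) with *CG4030*, which varied between 4.14 FPKM in M6 and 7.78 FPKM in M1.

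*tobi*, an α-glucosidase gene named as a target of brain insulin, was high in M3–5 and low in the other 7 libraries. It had 0.471, 3.71, 165, 3.61, 0.224, 0.427, 0.433 and 0.218 FPKM from M1 to M12–13. M3–5 was 44.5 times M2, the next highest, and 758 times M12–13, the lowest. The value of 165 FPKM stood at percentile 95.1 of all entries in that library, and the deposited interval ran up to 423 FPKM. By the read estimate *tobi* had about 10462 reads in M3–5 and 195 reads in M2 (95% Poisson interval 168.6 to 224), against 21 to 34 reads in M1, M7–8, M9 and M10–11.

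The steps around M3–5 were the largest of any of the 9 genes. M3–5 was higher than M2 by 5.14 on the log2 scale, as a step of at least 1 was in 2.87% of all genes, and M6 was lower than M3–5 by 5.17. Steps in these directions were partly built in, since *tobi* met the expression limit only through M3–5. On either side, M2 was higher than M1 by 1.68, as in 4.16% of all genes, and M7–8 was lower than M6 by 1.91, as in 5.02%. *tobi* was at 2.25% of its M3–5 value in M2 and at 2.19% in M6. The study names imperfect dissection as a possible source of RNA from neighbouring subsections, and its part in these values was not tested. The range of 7.09 exceeded that of 96.3% of the 6315 genes.

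*tobi* lies on chromosome 3R in a bundle (21165974 to 21172643) with *rha*, which was at most 0.0284 FPKM in any subsection. Of the enteroendocrine peptide genes, *Mip* had the same position, with 22.2 FPKM in M2, 696 FPKM in M3–5 and 42.2 FPKM in M6, and the list (9 genes) summed to 826 FPKM in M3–5 against at most 228 FPKM in the other libraries. Without *Mip* the other 8 genes summed to 129.8 FPKM in M3–5 and to between 71.4 and 228 FPKM elsewhere, and 7 of the 8 were highest in another subsection. The part of enteroendocrine cells in the value of *tobi* was not tested.

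Set against each other, the divisions separated *tobi* and *Glut1* only. The anterior minus posterior difference was 2.95 for *tobi* (anterior mean 3.39, posterior mean 0.44). So 1 of the 9 genes, and 1 of the 5 over the expression limit, was higher in the anterior midgut by at least 1. The share was 23.8% of all genes, which were all over that limit. *Glut1* alone was lower, against 19.9% of all genes. The median over all genes was 0.18. For *tobi* the difference rested on M3–5, since without that library it was 0.96. *Tret1-1* had a difference of 0.51, which was −0.37 without M1 and 1.13 without M3–5.

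This comparison depended on how the libraries were scaled. When all libraries were given the same summed FPKM, the median over all genes moved to −0.89 and the anterior minus posterior difference was 2.398 for *tobi*, −0.57 for *Tret1-1*, −1.19 for *sut1*, −1.74 for *Treh* and −2.43 for *Glut1*. By that scaling 268 genes were higher and 2945 lower in the anterior midgut, against 1503 and 1259 as deposited. Relative to the median of all genes, the difference under that scaling was 0.32 for *Tret1-1* (0.33 as deposited), −0.30 for *sut1* (−0.19), −0.85 for *Treh* (−0.79), −1.54 for *Glut1* (−1.78) and 3.29 for *tobi* (2.77). Rescaling multiplies all values of a library by the same factor, and taking off the median removes most of the shift. The likeness of these values to the deposited ones was therefore largely built in. The highest subsection under the same summed FPKM was M12–13 for *Tret1-1* and *sut1* and M10–11 for *Treh*, while it stayed M3–5 for *tobi* and M12–13 for *Glut1*.

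Of the 9 genes, 4 were lower in M6 by at least 1, and these were 4 of the 5 over the expression limit. The difference between M6 and the mean of the other 7 subsections was −2.74 for *Treh* (M6 1.82, others 4.56), −1.78 for *Glut1* (M6 0.07, others 1.85), −1.61 for *sut1* (M6 3.66, others 5.27) and −1.19 for *Tret1-1* (M6 2.23, others 3.43). Of all genes, 26.4% were lower in M6 by at least 1. None of the 9 was higher in M6 by at least 1, against 7.06% of all genes. *tobi* had a difference of 0.52, with 3.61 FPKM in M6, and *Tret1-2* one of −0.21, with 0.276 FPKM there, above its values in M2, M3–5, M7–8 and M10–11.

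The median over all genes was −0.49, and relative to it the deposited values of these genes were −2.25 for *Treh*, −1.29 for *Glut1*, −1.12 for *sut1* and −0.71 for *Tret1-1*. After division by the median ratio, 811 genes were higher and 977 lower in M6 (446 and 1666 as deposited), *Tret1-1* was at −0.75 and no longer past the limit, and the same held without M1 (−0.85). M6 was the lowest subsection of *sut1*, *Glut1* and *Treh*, as of 42.5% of all genes. *Glut1* at 0.0495 FPKM and *sut2*, *sut3* and *sut4* at 0 are values from the shallowest library, for which no read estimate could be made, and the part of depth and RNA quality in these values was not tested.

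**Figure D2:**
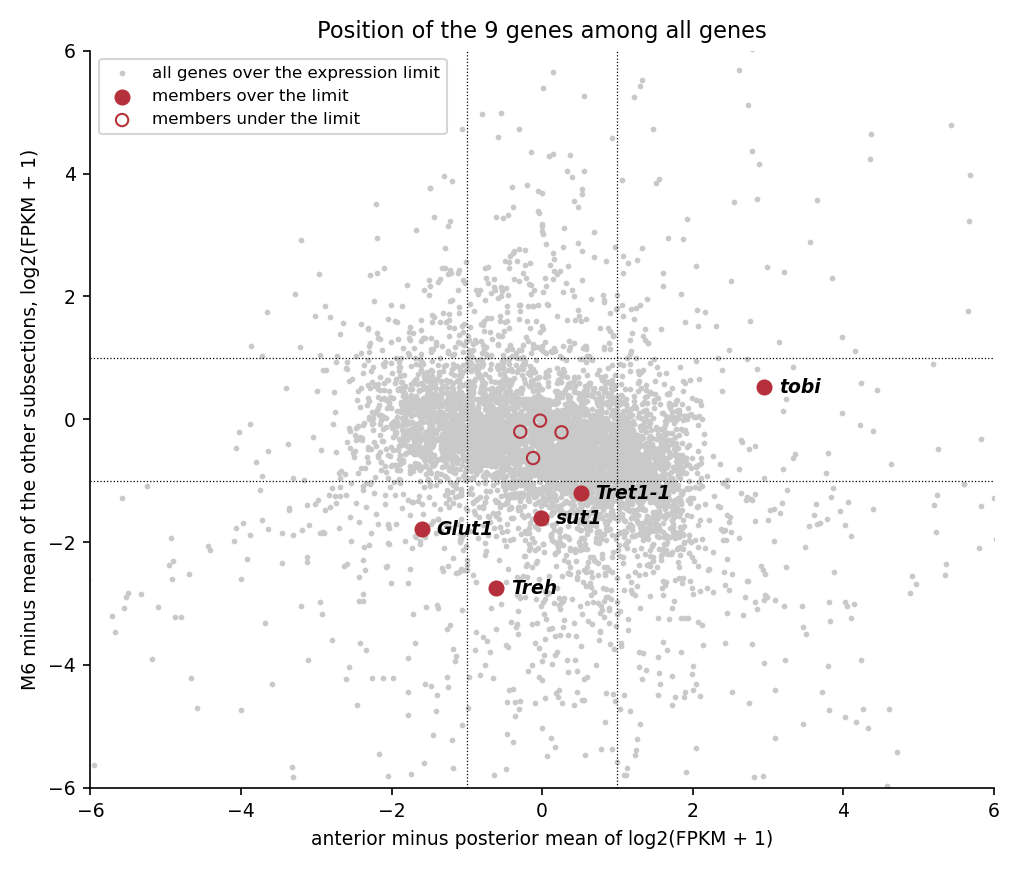
Each point is a gene, placed by its anterior minus posterior difference (x axis) and its M6 minus other subsections difference (y axis), both in log2(FPKM + 1), with dotted lines at the limits of 1. Grey points are the 6315 genes over the expression limit (122 lie outside the axes), filled red points the 5 genes of the set over it, and open red points the 4 genes under it, and *tobi* stands to the right at 2.95 while *Treh* is lowest at −2.74.

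The middle midgut as a whole was lower than both ends for *Glut1* (middle mean 0.49, mean of the ends 2.01, difference −1.52) and *Treh* (3.14 and 4.57, difference −1.43). These were 2 of the 9 genes, and 2 of the 5 over the expression limit, against 19.4% of all genes. None was higher, against 7.7%. For *Treh* the difference rested on M6: with M7–8 alone as the middle midgut it was −0.11. *Glut1* was at −0.996 without M12–13, just under the limit. *Tret1-1* was at −0.83, *sut1* at −0.95 and *tobi* at −0.67.

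Counted over all neighbours, the 9 genes had 7 steps upward (11.1%) and 9 downward (14.3%) past the limit among 63. The 5 genes over the expression limit had 7 upward (20%) and 8 downward (22.9%) among 35. Over the 6315 genes, all over that limit, the shares were 7.75% upward and 8.45% downward. *tobi* held 4 of the steps of the set and *Treh* 5. *tobi* and *Glut1* met the expression limit only through the library in which they were highest. Their steps into and out of that library were therefore partly built in, and the shares of the 5 genes are not comparable with the background on that account.

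Among the other sugar transporter genes, the members of the set held a small share of the summed FPKM in the anterior midgut. The list of other sugar transporter genes held 19 names, of which 18 were found and 9 were over the expression limit. Leaving out *slv*, 17 were carriers of the same family as the 7 transporters of the set. The 7 transporters of the set summed to 78.2, 67.9, 40.4, 15.7, 41.1, 46.0, 50.4 and 84.3 FPKM from M1 to M12–13. The 17 others summed to 1194, 1091, 752, 35.4, 110.2, 249, 225 and 171 FPKM in the same order. The set thus made up 6.14% of the summed transporter FPKM in M1, 5.09% in M3–5, 30.7% in M6 and 33.0% in M12–13.

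**Figure D3:**
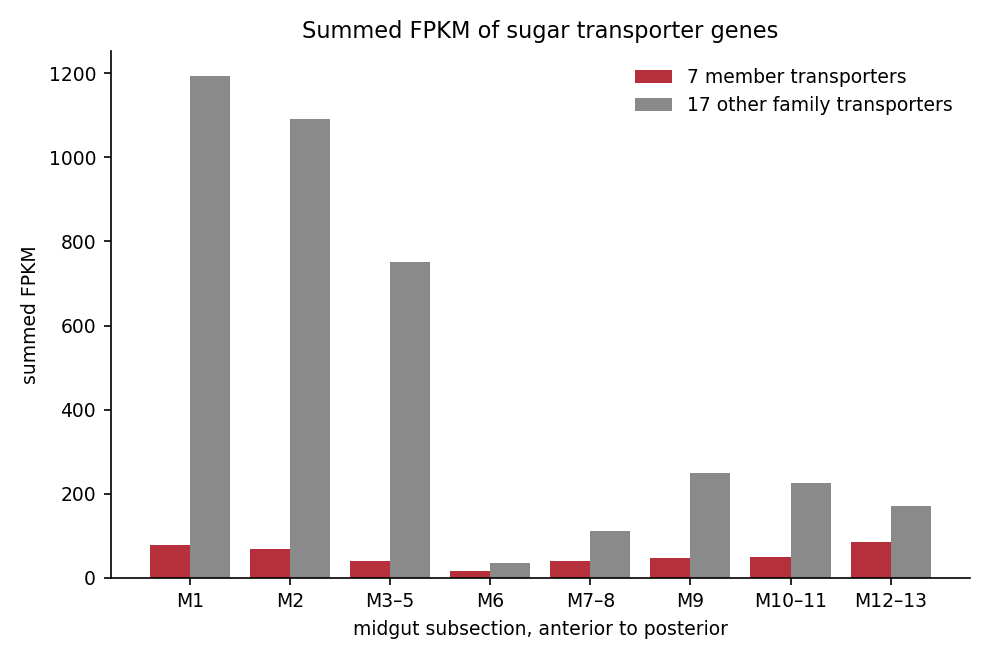
Summed FPKM (y axis) of the 7 transporter genes of the set and of 17 other genes of the family in the 8 subsections (x axis). The 7 genes stay between 15.7 and 84.3 FPKM, while the 17 others run from 1194 FPKM in M1 to 35.4 FPKM in M6.

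The strongest of these carriers were higher in the anterior midgut, while none of the 7 was past the anterior limit. *CG6484* had 437, 290, 168, 0.234, 2.29, 5.28, 4.21 and 0.761 FPKM from M1 to M12–13. *CG1208* had 287, 302, 220, 1.49, 0.869, 6.58, 36.7 and 107 FPKM, and so was high again at the hind end, where *Glut1* was highest. *CG4797* was an exception among the strong carriers, with an anterior minus posterior difference of 0.68, under the limit. It had 111, 152, 107, 18.7, 71.4, 149, 121 and 23.8 FPKM from M1 to M12–13, and led the family in M6, M7–8, M9 and M10–11.

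Of the 9 listed genes over the limit, *slv* included, 6 were higher in the anterior midgut by at least 1 (median 1.94) and *CG10960* was lower. Of all genes, 23.8% were higher and 19.9% lower (median 0.18). In M6, 8 of the 9 were lower by at least 1, against 26.4% of all genes, with a median of −2.24 against −0.49. *slv*, which is not a carrier of the same family, was among the 6 (1.02) and among the 8 (−1.42). *slv*, whose bundle overlaps that of *sut1*, had 34.6 FPKM in M1, 42.6 FPKM in M2, 8.53 FPKM in M6 and 14.7 FPKM in M12–13. Both peaked in M2 and were lowest in M6, but *slv* was lower in M12–13 than in M1, whereas *sut1* was higher there. The library preparation was unstranded, so reads from overlapping parts of the pair cannot be told apart.

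**Figure D4:**
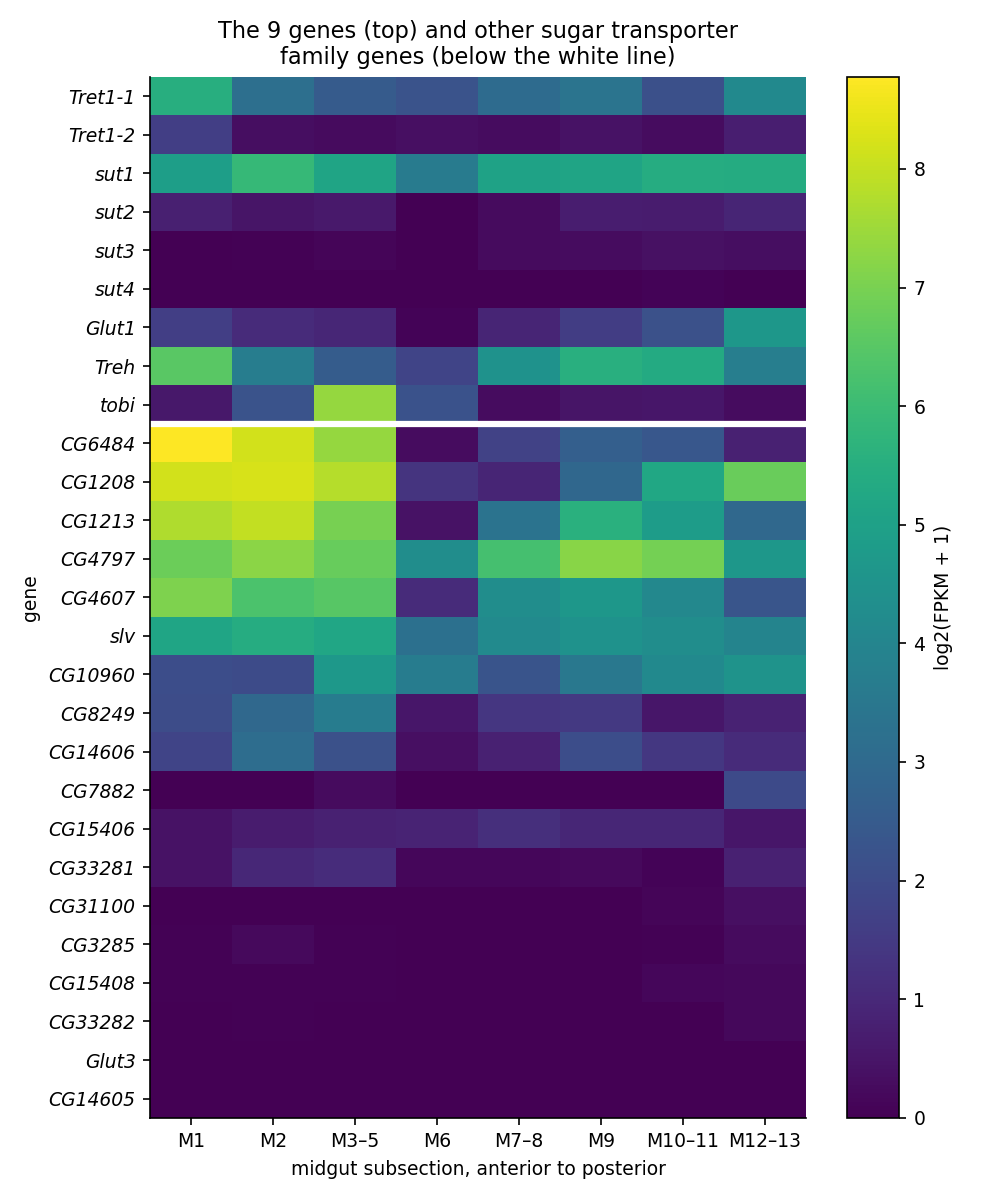
Colours show log2(FPKM + 1) for the 9 genes (above the white line) and 18 other genes of the sugar transporter list (below it, ordered by highest FPKM), in the 8 subsections from anterior to posterior. *CG6484*, *CG1208* and *CG1213* are bright in M1, M2 and M3–5 and dark in M6, while *sut1* is nearly even along the row.

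Other genes of trehalose metabolism were few. *Tps1*, which encodes the synthase that makes trehalose in the fat body, was at most 0.1999 FPKM, *CG6262*, another predicted trehalase gene, was at most 0.00517 FPKM, and the predicted phosphatase gene *CG5171* was at most 1.34 FPKM. *CG5177*, a predicted trehalose phosphatase gene, was the 1 of 4 over the limit, with 22.6 FPKM in M6 and 54.9 FPKM in M12–13. M6 was lower than M3–5 by 1.13 on the log2 scale, and no other measure of *CG5177* was past a limit. *Treh* was thus the trehalase gene with signal along the midgut. The fat body list (6 genes) summed to 35.3 FPKM in M1, 18.1 FPKM in M2, 27.5 FPKM in M3–5 and at most 3.51 FPKM in the other 5 subsections, so these storage protein genes were also higher at the anterior end, where *Treh* and *Tret1-1* had their highest values. The part of fat body RNA in those values was not tested.

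Glycolysis, the pathway into which glucose from these routes enters, had 12 of 13 genes over the limit. In M6, 11 of the 12 were lower by at least 1 (median −2.31), against 26.4% of all genes (median −0.49), and the lactate dehydrogenase gene *ImpL3* was higher (19.7 FPKM). Between the divisions, 3 were higher in the anterior midgut, against 23.8% of all genes, and the hexokinase gene *Hex-A* was lower, against 19.9%. *Hex-A* had 9.55, 8.29, 9.98, 4.71, 19.5, 86.1, 108 and 74.5 FPKM from M1 to M12–13. It was thus high throughout the posterior midgut, in M9 and M10–11 as *Treh* was, but also in M12–13, where *Treh* was at 12.3 FPKM. In M1, where *Treh* was highest, *Hex-A* was low. Of 5 glycogen and UDP-sugar genes found, 4 were lower in M6 by at least 1, against the same 26.4%.

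Among genes of sugar sensing, the 8 names listed stood for 7 genes, of which 5 were over the limit. *daw*, an activin-like ligand of the TGF-β family involved in sugar responses, had 145, 15.8, 4.46, 1.89, 4.66, 66.5, 34.3 and 9.60 FPKM from M1 to M12–13. Like *Treh*, *daw* had high values in M1 and M9 and its lowest in M6. Between both genes r over the 8 subsections was 0.91 (0.88 without M6), which put *daw* at rank 5 among the genes most like *Treh*. They differed in M7–8, where *daw* was at 3.21% of its highest value and *Treh* at 23.0%. *sug*, a zinc finger transcription factor gene of the sugar response, lay between 130 FPKM in M6 and 436 FPKM in M9, and *Mio*, the sugar-sensing partner of the bHLH factor gene *bigmax*, between 8.85 FPKM in M6 and 73.3 FPKM in M1. Neither had a peak in M3–5, where *tobi* was highest. The insulin receptor gene *InR* was at most 2.06 FPKM and the adipokinetic hormone receptor gene *AkhR* at most 0.148 FPKM.

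The genes most similar to each of the 5 were found by Pearson r of log2(FPKM + 1) over the 8 subsections, a description in which every point of a gene shares its library with all others. For *tobi* they were *CG5445* (r 0.98, 95.9 FPKM in M3–5), the odorant receptor gene *Or10a* (r 0.96, 13.3 FPKM) and the gustatory receptor gene *Gr10a* (r 0.95, 6.06 FPKM). *CG5445* did not drop as far as *tobi*, with 10.5 FPKM in M1 and 23.8 FPKM in M6. For *Treh* they were *Irp-1B*, an iron regulatory protein gene (r 0.96), *Ag5r* (r 0.93) and the aquaporin gene *CG7777* (r 0.93), each highest in M1. *Irp-1B* was at 265 FPKM there and 43.2 FPKM in M6.

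For *Glut1* they were *CG8009* (r 0.98), the mitochondrial phosphate carrier gene *Mpcp* (r 0.96) and *CG31267* (r 0.96). *CG31267* reached 1211 FPKM in M12–13 and 0.126 FPKM in M6, while *Mpcp* varied only between 291 FPKM in M6 and 579 FPKM in M12–13. For *Tret1-1* they were the DNA replication gene *Psf3* (r 0.98, 16.0 FPKM in M1), the sepiapterin reductase gene *Sptr* (r 0.87) and *CG6805* (r 0.86). For *sut1* they were the RNA helicase gene *tst* (r 0.98), the pseudogene *5SrRNA-Psi:CR33363* (r 0.96) and the pyrimidine catabolism gene *su(r)* (r 0.95), and without M6 r was 0.94, 0.81 and 0.77 for these genes in the same order. The likeness depended on the scaling. With the same summed FPKM, *Psf3* was at rank 174 among the genes most like *Tret1-1* (r 0.63), *tst*, *5SrRNA-Psi:CR33363* and *su(r)* were at ranks 654, 367 and 252 for *sut1*, and *CG8009*, *Mpcp* and *CG31267* were at ranks 103, 575 and 19 for *Glut1*. The 3 genes named for *Treh* were at ranks 5, 3 and 1, and those named for *tobi* at ranks 25, 7 and 8.

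**Figure D5:**
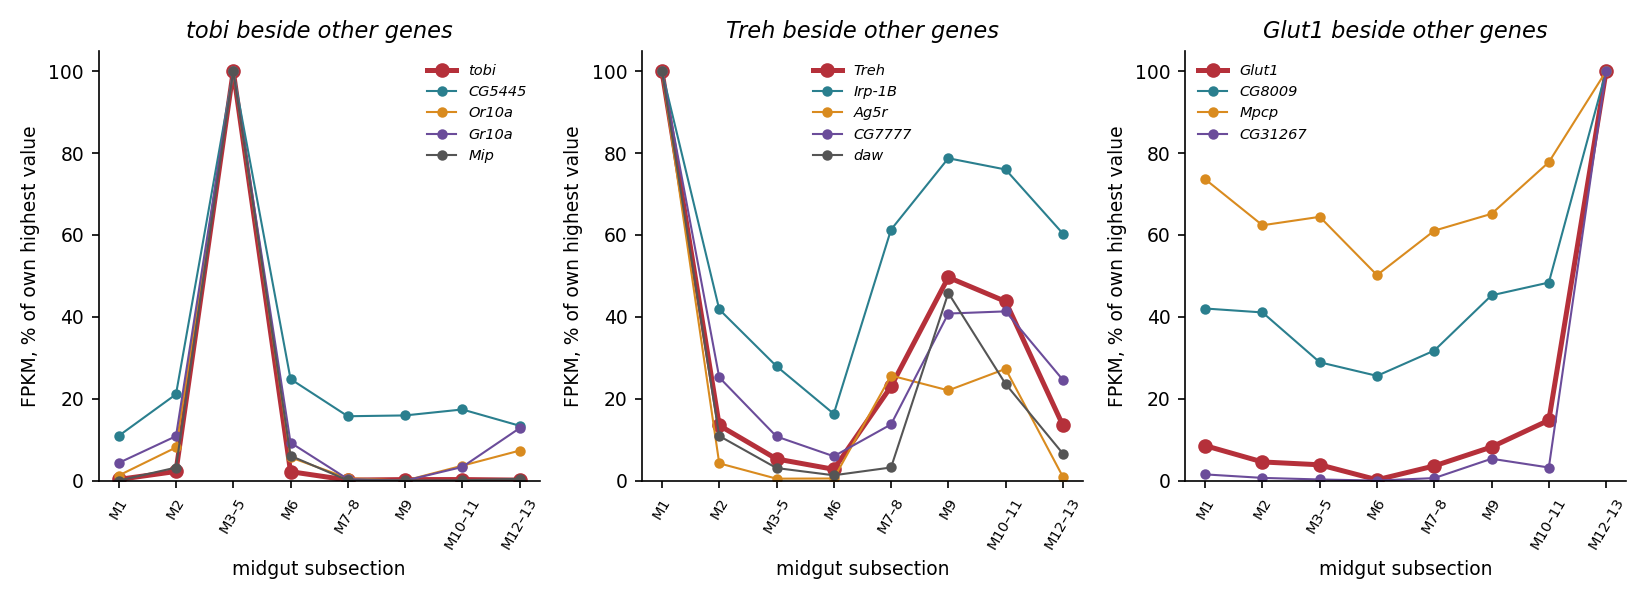
FPKM as a percentage of each gene's own highest value (y axis) in the 8 subsections (x axis, anterior to posterior) for *tobi*, *Treh* and *Glut1* (thick red lines) beside the genes named with them in the text. *tobi* lies close to 0 on both sides of M3–5, *Treh* and *daw* have a second high in M9, and *Mpcp* stays above 50% of its highest value where *Glut1* is below 15%.

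Among the 9 genes themselves, the 5 over the limit had unlike patterns. The pair with the highest r was *Tret1-1* and *Treh* (0.59, 0.49 without M6), which were both highest in M1, and the lowest was *Treh* and *tobi* (−0.61). *Glut1* and *Treh* had r 0.27, and *sut1* and *tobi* −0.06.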

How the data were processed

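Tissue of the 8 subsections was sequenced by the authors as 38-bp single-end reads in 1 library each. The authors mapped reads with TopHat2 2.0.6 to the genome of FlyBase release 5 and deposited FPKM values made with Cuffdiff 2.0.2, using upper-quartile normalization, multiread correction, fragment bias correction and a blind dispersion model. The deposited intervals and status of each value, another kind of column, were read only to describe the values. The table holds no counts, and the depth of a value is known only from the estimate below. The 1 unnamed entry was left out.

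Values were analysed as log2(FPKM + 1). The limits and measures are given where they are first used, and no test was made. The 9 genes, the lists and the limits were chosen with earlier results of these data known. The genes named are the 9, the listed genes and the 3 genes most similar to each of the 5 over the limit. Positions are bundles of overlapping genes, with starts counted from 1. Transcript lengths came from a later annotation, BDGP6, joined by identifier (13635 entries, all 9 genes). The trend with length was fitted by lowess (share 0.3).

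The FPKM of 1 read was estimated, by a procedure chosen after the data were seen, from low values of 5778 single-transcript genes with 200 nucleotides taken from their length. It was used for the 6 libraries in which at least 60% of values under 3.5 reads lay within 0.2 of a whole number (61.6% to 79.7%, against 50.3% in M6 and 56.9% in M12–13).

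Alternatives were a pseudocount of 0.1, the same summed FPKM, division by the median ratio, entries with status OK only, no filter on low values, each subsection left out, and removal of the length trend. On simulated data, the anterior minus posterior difference of changed genes was checked against a known value with a limit on the error. The read estimate and the length trend were also run on simulated data, but without a limit that could fail. The software was numpy 2.4.6 and pandas 2.3.3 for the tables and statsmodels 0.14.6 for lowess, under Python 3.11.15.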

Additional observations from a re-analysis of the deposited data

How the results depend on the processing

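With a pseudocount of 0.1, 8 genes had a range of at least 2 (5 as reported), 2 were lower in the anterior midgut by at least 1 (1 as reported), 1 was higher in M6 (0 as reported), and 13 steps were upward past the limit (7 as reported). With the same summed FPKM, 3 genes were lower in the anterior midgut, 1 was lower in the middle midgut (2 as reported) and 1 was higher in M6. With the length trend removed, 0 were lower in the anterior midgut. Leaving out each subsection in turn gave 1 to 2 genes lower in the anterior midgut, 1 to 4 lower in the middle midgut and 0 to 1 higher in M6. The gene higher in M6 was *tobi*, at 1.41 with the pseudocount of 0.1, 1.03 with the same summed FPKM and 1.47 without M3–5. The other 80 of 92 recomputed counts were within 1.5 times the reported count.

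Over all genes, the same summed FPKM gave 268 genes higher and 2945 lower in the anterior midgut (1503 and 1259 as reported), 984 higher and 672 lower in the middle midgut (486 and 1222), and 712 higher and 1045 lower in M6 (446 and 1666). Division by the median ratio gave 745 higher in the middle midgut, and 811 higher and 977 lower in M6. Removing the length trend gave 498 higher and 687 lower in the anterior midgut, and 725 higher and 893 lower in M6. The cause was not tested.

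No paired analysis was possible because each subsection has 1 library. Values under 0.1 FPKM rest on a few reads, and in M6 and M12–13 the reads behind a value are unknown.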
